A study of Mus musculus with 4 samples.

Results

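Lmo2, Lyl1, Hhex, Mef2c and Meis1 encode transcription factors that are characteristic of multipotent blood stem and progenitor cells. They were taken by symbol from the 31053 genes counted in the deposited matrices, and each of the 5 symbols matched a single gene. Their levels were followed in mouse progenitors during the first days of T-cell development in culture.

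In the uncommitted precursors that enter the T lineage, Notch signalling starts the T-cell program while a set of factors inherited from the stem cell is still expressed. LMO2 is a LIM-only protein that binds no DNA itself and bridges basic helix-loop-helix proteins such as LYL1 and TAL1 to GATA factors through the adaptor LDB1. HHEX is a homeobox repressor, MEF2C a MADS-box activator with roles in lymphoid and myeloid choice, and MEIS1 a homeobox partner of HOXA proteins. Persistent expression of Lmo2, Lyl1, Hhex or Mef2c is a known feature of immature T-cell leukaemia. Runx1 and Runx3 encode DNA-binding factors that act throughout blood development and T-cell commitment.

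The study pooled cultures with gain or loss of Runx factors on OP9-Dll1, stromal cells that present the Notch ligand Dll1, with IL-7 and Flt3 ligand at 10 ng/ml each. In the gain arm, bone marrow progenitors of B6.Bcl2 transgenic mice aged 8 to 10 weeks received MSCV-Runx1-mCherry or MSCV-empty-mCherry on day 2 and were sorted on day 4 or day 6. In the loss arm, progenitors of B6.Cas9;Bcl2 transgenic mice received E42-gRunx1-humanNGFR with E42-gRunx3-mTurquoise, or the matching E42-gControl vectors whose guides target luciferase, and were sorted on day 5 or day 8. Each of Runx1 and Runx3 was targeted with 3 guide pairs. All cultures carried the Bcl2 transgene, whose promoter the labels do not give, and sorted cells were Lineage-negative, CD45+ and positive for the vector reporters. Every culture was stained with a hashtag, an antibody that carries a DNA barcode, before pooling. The labels give 4 to 5 days of culture for experiment 1 and 4 to 8 days for experiment 2. The labels do not tie a hashtag to a vector or a day, so the 8 hashtags of each experiment are given as 8 cultures of unstated condition, with no test between them.

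Each experiment had 1 mRNA library. After filtering, 8797 cells of experiment 1 and 8335 of experiment 2 carried a single hashtag, with 691 to 1312 cells and 14502385 to 42684236 unique molecular identifiers (UMIs, each a counted transcript molecule) per hashtag. Levels are UMIs per 1000000 UMIs of a hashtag (CPM) with exact 95% Poisson intervals, which cover counting error only. UMIs come from the 3′ end of each transcript, and levels are compared within a gene, not between genes. The 10 T progenitor markers summed to 437.2 to 1128 CPM per hashtag in experiment 1 and 239.7 to 1784 CPM in experiment 2. Such sums do not settle identity, since granulocyte or monocyte markers were also found in every hashtag, at 278.0 to 1570 CPM and 217.6 to 12048 CPM. Clusters with leading genes of another lineage held 15.9% (experiment 1) and 27.2% (experiment 2) of single cells, although the sort was for Lineage-negative cells. Of these 1396 and 2270 cells, 1049 and 734 were in 1 unnamed cluster of each experiment, with Irf8, Prtn3 and Csf1r among its leading genes. Whether cells of that cluster had left the T lineage was not tested. Between the experiments, 28 single-cell barcodes were shared.

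Lmo2 (ENSMUSG00000032698, chr2:103957903-103981878, GRCm38.p6) varied widely between cultures. In experiment 1 its level ran from 25.8 CPM in hashtag 4 to 80.4 CPM in hashtag 2, with a median of 51.5 CPM over the 8 hashtags. Hashtags 1, 2 and 8 were high, at 68.8 to 80.4 CPM, and hashtags 3, 4 and 5 were low, at 25.8 to 33.3 CPM. The highest level was 3.12-fold the lowest (95% interval 2.89 to 3.38). In experiment 2 Lmo2 ran from 11.0 CPM in hashtag 7 to 123.6 CPM in hashtag 6, with a median of 63.4 CPM. This 11.2-fold span (interval 9.86 to 12.7) rested largely on hashtag 7, and without that hashtag it was 4.06-fold. After thinning each cell to 5000 UMIs, which left out 185 shallower cells of that experiment, 35.2% of hashtag 6 cells and 4.60% of hashtag 7 cells had an Lmo2 UMI. Before thinning these shares were 67.4% and 14.7%, at median depths of 27028 and 21907 UMIs. In innate lymphoid or NK-like cells of the same experiment, a class in which Lmo2 was near its lowest level, the share before thinning was 3.08% at a median of 17049 UMIs.

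Lyl1 (ENSMUSG00000034041, chr8:84701423-84704716) encodes the helix-loop-helix partner of LMO2 and was the most even of the set. In experiment 1 it ran from 76.7 CPM in hashtag 6 to 100.5 CPM in hashtag 7, with a median of 84.5 CPM. The intermediate hashtags 1 to 5 lay within 83.6 to 85.9 CPM, with overlapping intervals. The ratio of highest to lowest was 1.31 (interval 1.23 to 1.39). In experiment 2 Lyl1 ran from 63.8 CPM in hashtag 4 to 96.6 CPM in hashtag 8, with a median of 75.0 CPM, a 1.51-fold span (interval 1.42 to 1.61). Hashtag 7 of experiment 2, which was lowest for Lmo2, held Lyl1 at 85.4 CPM (interval 81.7 to 89.2), above that median. Its interval overlapped that of hashtag 6, at 84.4 CPM (80.9 to 87.9). With thinned cells hashtag 7 was at 77.6 CPM, below hashtags 1, 6 and 8, at 78.6, 85.1 and 92.0 CPM. Without cells of other-lineage clusters it was at 90.2 CPM, below hashtags 1, 5, 6 and 8, at 90.7 to 110.9 CPM.

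Mef2c (ENSMUSG00000005583, chr13:83504017-83667079) followed Lmo2 across cultures. In experiment 1 it ran from 53.8 CPM in hashtag 4 to 160.5 CPM in hashtag 8, with a median of 105.6 CPM. The span was 2.98-fold (interval 2.80 to 3.18). Hashtags 3 and 4 were the lowest 2, at 60.7 and 53.8 CPM, and hashtags 7 and 8 the highest, at 139.2 and 160.5 CPM. In experiment 2 it ran from 32.2 CPM in hashtag 7 to 201.5 CPM in hashtag 6, with a median of 115.8 CPM. The span was 6.26-fold (interval 5.80 to 6.77). Without hashtag 7 the ratio was 3.81. As a description over 8 hashtags that share a library, Pearson's r of log2(CPM + 1) between Lmo2 and Mef2c was 0.91 in experiment 1 and 0.98 in experiment 2. For no other pair of the set was r above 0.7 in both experiments, and Lmo2 against Lyl1 gave 0.24 and -0.03.

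Hhex (ENSMUSG00000024986, chr19:37434841-37440731) held 60.3 CPM in hashtag 7 of experiment 1 and 75.7 to 95.6 CPM in the other 7 hashtags, with a median of 92.8 CPM and a 1.58-fold span (interval 1.48 to 1.69). In experiment 2 it ran from 44.8 CPM in hashtag 7 to 89.0 CPM in hashtag 2, with a median of 71.6 CPM. The ratio there was 1.99 (interval 1.85 to 2.14), so that Hhex lay just under 2-fold. Hashtags 7 and 8 were the lowest 2 for Hhex in both experiments. Hashtag numbers follow column order and need not mark the same condition in the 2 experiments.

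Meis1 (ENSMUSG00000020160, chr11:18880428-19019651) had the fewest UMIs, 4065 in experiment 1 and 2927 in experiment 2. In experiment 1 it ran from 9.0 CPM in hashtag 6 to 34.1 CPM in hashtag 7, with a median of 18.0 CPM and a 3.79-fold span (interval 3.28 to 4.39). Hashtags 7 and 8 stood highest, at 34.1 and 30.1 CPM, and hashtags 5 and 6 lowest, at 10.7 and 9.0 CPM. In experiment 2 it ran from 3.57 CPM in hashtag 7, from 84 UMIs, to 20.3 CPM in hashtag 2, with a median of 12.4 CPM and a 5.68-fold span (interval 4.51 to 7.22). Without hashtag 7 that ratio was 2.01.

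**Figure D1:**
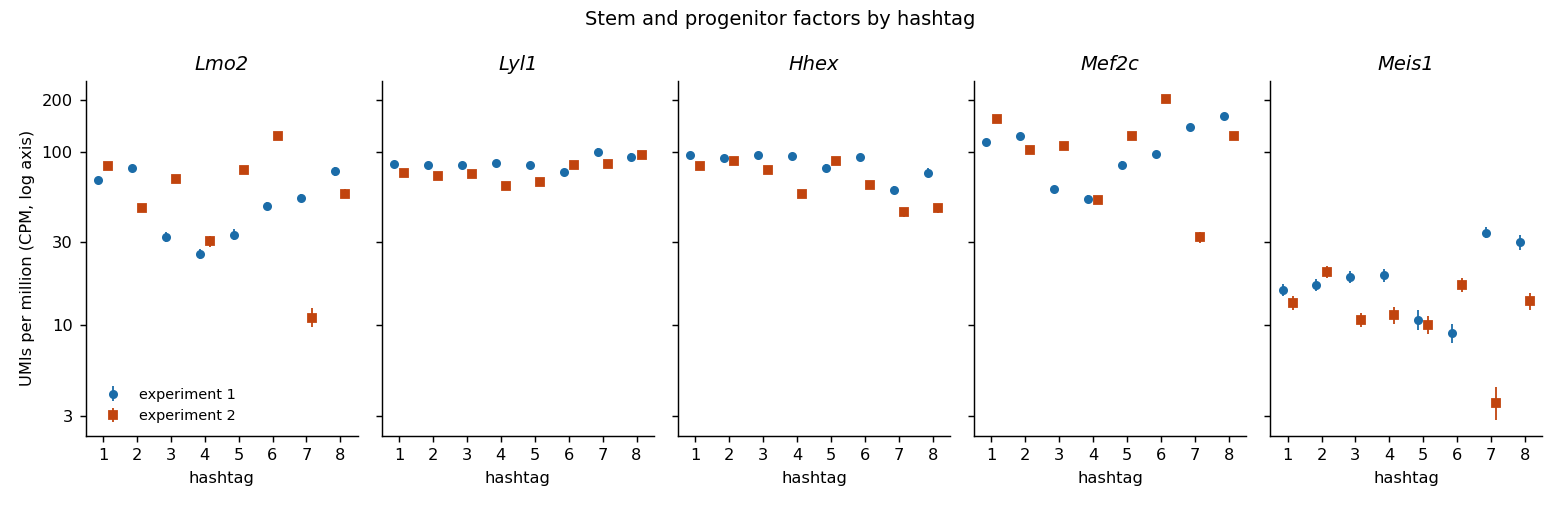
Level of each factor (CPM, log axis) in the 8 hashtags of experiment 1 (circles) and experiment 2 (squares), with exact 95% Poisson intervals as bars, which are often smaller than the symbols. Lyl1 stays between 63.8 and 100.5 CPM throughout, while Lmo2, Mef2c and Meis1 are each lowest in hashtag 7 within experiment 2.

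Spans of 2-fold or more were seen for 3 of the 5 factors (Lmo2, Mef2c and Meis1) in each experiment. The share of all tested genes (mean level 5 CPM or higher) with such a span was 10.8% of 8775 in experiment 1, and in experiment 2 it was 17.4% of 8784. The median span was 2.98 for the 5 factors against 1.31 for all tested genes in experiment 1, and 5.68 against 1.38 in experiment 2. Lyl1 lay near the middle of all genes, with 50.1% of tested genes below its ratio in experiment 1 and 64.7% in experiment 2. No p-value is given, since cultures of unstated condition are not replicates of a group.

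Between the 2 experiments each factor differed by less than 2-fold. Over all single cells, Lmo2 was at 53.0 CPM in the first and 64.6 CPM in the second (1.22-fold), and Mef2c at 100.6 and 114.5 CPM (1.14-fold). Hhex was at 88.4 and 71.3 CPM (0.807), Lyl1 at 85.8 and 76.7 CPM (0.895), and Meis1 at 18.4 and 12.6 CPM (0.685). None of the 5 passed 2-fold, against 3.36% of 9088 tested genes in either direction, 3.01% higher and 0.341% lower in experiment 2. With 5 factors such a count lies near that share and is not read as a result about the set. Without other-lineage cells the ratio was 1.57 for Lmo2, 1.33 for Mef2c and 0.996 for Lyl1. With cells thinned to 5000 UMIs the Meis1 ratio was 0.565. With 1 library each, this comparison has no replicate check.

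The RefSeq table of promoter windows matched Lyl1, Hhex, Mef2c and Meis1 of the set, with 3 windows for Mef2c and 1 for each of the others. For Mef2c only window 1 is printed, and the CG content of its other windows is not given here. The bases just before the annotated start of Lyl1, Hhex and Mef2c are printed here because they differ strongly in CG content, with each CG dinucleotide in capitals, on the plus strand of GRCm38.p6. Lyl1 is given at chr8:84701207-84701422, Hhex at chr19:37434591-37434840 and Mef2c at chr13:83503784-83504016.
Lyl1: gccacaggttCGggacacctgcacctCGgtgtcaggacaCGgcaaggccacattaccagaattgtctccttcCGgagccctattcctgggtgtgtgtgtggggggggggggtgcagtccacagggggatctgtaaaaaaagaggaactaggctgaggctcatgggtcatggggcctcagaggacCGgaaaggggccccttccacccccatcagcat
Hhex: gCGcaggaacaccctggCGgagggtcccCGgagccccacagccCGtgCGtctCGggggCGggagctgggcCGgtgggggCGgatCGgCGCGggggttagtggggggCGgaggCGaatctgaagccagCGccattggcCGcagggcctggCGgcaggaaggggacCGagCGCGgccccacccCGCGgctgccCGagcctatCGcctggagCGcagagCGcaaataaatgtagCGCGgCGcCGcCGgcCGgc
Mef2c: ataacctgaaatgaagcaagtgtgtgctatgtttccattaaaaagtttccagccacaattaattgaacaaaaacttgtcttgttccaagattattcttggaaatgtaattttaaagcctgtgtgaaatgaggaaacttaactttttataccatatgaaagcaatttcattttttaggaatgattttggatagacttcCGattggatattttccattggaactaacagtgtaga
The Hhex stretch (250 bases) is 76.0% G or C with 32 CG dinucleotides. That of Lyl1 (216 bases) is 60.6% with 5, and that of Mef2c window 1 (233 bases) is 30.9% with 1. The median of 32851 windows of 250 bases was 52.4% with 6 CG dinucleotides. The Mef2c stretch overlaps the annotated gene Gm33317, which is not among the counted genes under that symbol. The letters TGTGGT, a RUNX-type motif searched on both strands with overlaps counted, occurred in none of the 250-base windows of these 3 genes and once in the window of Meis1, against 14.0% of all windows.

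The next comparison asked how the factors differ between earlier and later progenitors. Kit, the stem cell factor receptor, marks the earliest T precursors, and Il2ra, the gene of the CD25 surface protein, comes on at the next stage. Cells with at least 2 UMIs of Kit and none of Il2ra (1416 in experiment 1 and 1074 in experiment 2) were set against cells with at least 2 UMIs of Il2ra and none of Kit (1273 and 1452). Neither gene belongs to the set. In Kit+ Il2ra- cells against Kit- Il2ra+ cells, 2 of 5 factors were at least 2-fold higher in experiment 1, against 1.09% of all tested genes, and 4 of 5 in experiment 2, against 2.83%. None was 2-fold lower, against 1.99% and 2.87% of tested genes, so that 3.09% and 5.7% of tested genes differed 2-fold in either direction.

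Of the 5 factors, Lmo2 had the largest ratio between these gates. It was at 86.4 CPM in Kit+ Il2ra- cells and 11.8 CPM in Kit- Il2ra+ cells of experiment 1, a ratio of 7.30 (interval 6.50 to 8.22), and it was higher in the former in 8 of 8 hashtags, by 4.67-fold to 17.0-fold. In experiment 2 it was at 95.7 and 9.10 CPM, a ratio of 10.5 (interval 9.39 to 11.8), again in 8 of 8 hashtags. Within every hashtag the lower level belonged to the Kit- Il2ra+ cells, and the ranges over hashtags did not overlap, at 42.7 to 162.3 against 4.63 to 21.1 CPM in experiment 1 and 38.7 to 152.2 against 2.37 to 28.1 CPM in experiment 2.

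Mef2c was at 149.5 and 43.6 CPM in these gates of experiment 1 (ratio 3.43, interval 3.22 to 3.66) and at 173.6 and 22.7 CPM in experiment 2 (ratio 7.66, interval 7.12 to 8.26). It was higher in Kit+ Il2ra- cells in all 8 hashtags of both experiments, and the ranges over hashtags did not overlap in either. Hhex was at 112.3 and 64.0 CPM in experiment 1, a ratio of 1.75, and at 90.9 and 37.3 CPM in experiment 2, a ratio of 2.44. It too was higher in the former gate in 8 of 8 hashtags each time. Meis1 was at 23.4 and 15.9 CPM in experiment 1, a ratio of 1.47, and at 18.2 and 6.64 CPM in experiment 2, a ratio of 2.74. The exception to its direction was 1 hashtag of experiment 2.

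Lyl1 did not follow this order. It was at 79.9 CPM in Kit+ Il2ra- cells and 87.6 CPM in Kit- Il2ra+ cells of experiment 1, a ratio of 0.912 (interval 0.864 to 0.962), and at 80.8 and 80.8 CPM in experiment 2, a ratio of 0.999 (interval 0.948 to 1.05). In experiment 2 the first gate was higher in 4 of 8 hashtags. In cells with both Kit and Il2ra, Lyl1 was at 99.7 and 100.9 CPM, above both other gates in each experiment. Of the 5 stem and progenitor factors, Lyl1 was the one that was not higher in the earlier gate in either experiment.

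In the same cells positive for both, Lmo2 was already at 15.8 CPM in experiment 1 and 18.9 CPM in experiment 2, and Mef2c at 47.6 and 48.5 CPM. These levels were nearer to the Kit- Il2ra+ gate than to the Kit+ Il2ra- gate. Hhex was intermediate, at 76.6 and 66.6 CPM. Cells of other lineages made up 18.5% and 16.7% of the Kit+ Il2ra- gate and 5.97% and 9.37% of the Kit- Il2ra+ gate in experiments 1 and 2, with granulocyte or monocyte markers summing to 994.6 against 141.7 CPM and 2569.7 against 674.0 CPM. Lmo2 and Mef2c were higher still in Kit- Il2ra- cells, at 122.7 and 191.0 CPM in experiment 1 and 103.1 and 165.7 CPM in experiment 2, a gate in which 42.4% and 56.5% were other-lineage cells. Without other-lineage cells the Lmo2 ratio of Kit+ Il2ra- to Kit- Il2ra+ cells was 6.53 in experiment 1 and 10.5 in experiment 2, and the Mef2c ratio 3.54 and 8.41. Calling a gate positive at 1 UMI instead of 2 gave smaller Lmo2 ratios of 3.76 and 5.48 and a Mef2c ratio of 4.74 in experiment 2.

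**Figure D2:**
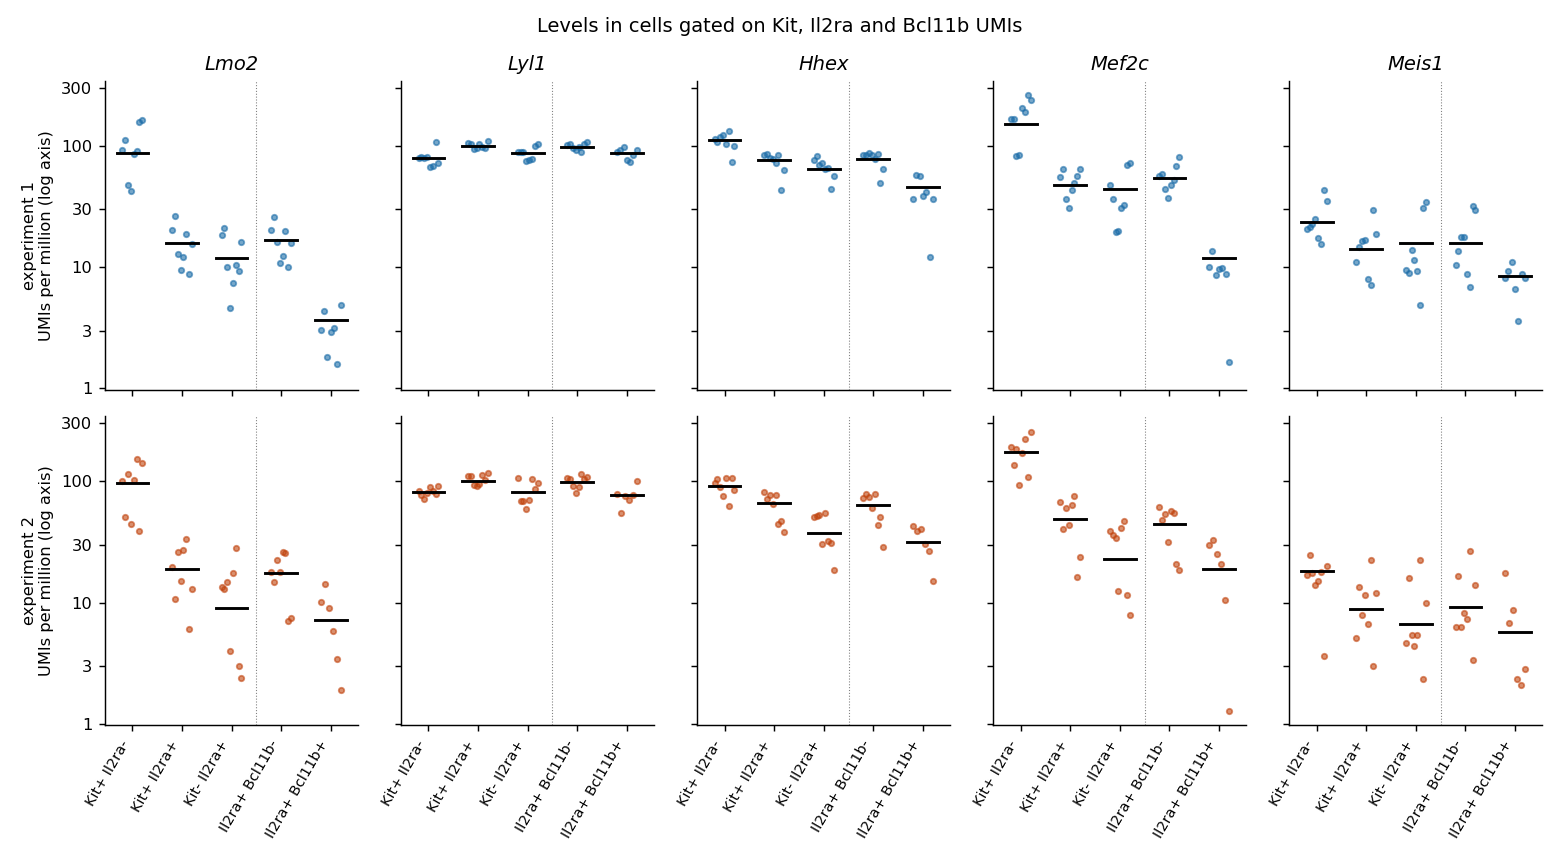
Level of each factor (CPM, log axis) in cells gated on UMIs of Kit, Il2ra and Bcl11b in experiment 1 (top) and experiment 2 (bottom). Each point is a hashtag with at least 20 cells in the gate and the black bar is the level over all cells of the gate; Lmo2 drops from 86.4 to 11.8 CPM between the Kit+ Il2ra- and Kit- Il2ra+ gates of experiment 1, and Lyl1 stays near 80 to 100 CPM.

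Among Il2ra+ cells, Bcl11b, whose product marks commitment to the T lineage, was used to divide cells with 0 UMIs from cells with at least 2. In experiment 1 Lmo2 was at 16.8 CPM in 3582 Bcl11b-negative cells and at 3.63 CPM, from 61 UMIs, in 699 Bcl11b-positive cells, a ratio of 4.63 (interval 3.59 to 6.09). Mef2c was at 54.3 and 11.9 CPM, a ratio of 4.58 (interval 3.98 to 5.31). Both were higher in Bcl11b-negative cells in 7 of the 7 hashtags with 20 cells in each gate, and these 2 of 5 factors passed 2-fold against 1.06% of all tested genes. None passed in the other direction, against 0.934%, or 1.99% for either direction. Hhex, at 78.0 and 46.0 CPM (ratio 1.69), and Meis1, at 15.8 and 8.40 CPM (ratio 1.89), had the same direction in 7 of 7 hashtags. Lyl1 was at 98.0 and 86.4 CPM, a ratio of 1.13. With cells thinned to 5000 UMIs the Hhex ratio was 2.72 and that of Mef2c 3.03. Other-lineage cells made up 6.06% of the Bcl11b-negative and 1.57% of the Bcl11b-positive cells, with granulocyte or monocyte markers at 169.0 and 41.0 CPM. Without them Lmo2 was at 14.4 and 3.04 CPM and Mef2c at 50.1 and 11.5 CPM.

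In experiment 2, 3 of 5 factors were at least 2-fold higher in Bcl11b-negative cells, against 2.12% of all tested genes. None was 2-fold lower, against 1.24%, or 3.36% for either direction. Lmo2 was at 17.6 and 7.18 CPM (ratio 2.45), Mef2c at 44.1 and 19.0 CPM (ratio 2.32) and Hhex at 63.4 and 31.5 CPM (ratio 2.01), each in 6 of 6 hashtags. Meis1 had a ratio of 1.61, with the first gate higher in 3 of 6 hashtags, and Lyl1 a ratio of 1.29, or 2.35 with cells thinned. Other-lineage cells made up 10.1% and 3.79% of these gates, with granulocyte or monocyte markers at 1141 and 311.6 CPM. Without them Lmo2 was at 16.4 and 6.63 CPM. The 180 Lmo2 UMIs of the 976 Bcl11b-positive cells came from 70 cells. With hashtags called by HTODemux, 839 such cells held 37 Lmo2 UMIs and the ratio was 8.42, with Mef2c at 5.60. With both gates positive at 4 UMIs or more none of the 5 passed 2-fold, and Lmo2 was at 1.61 and Mef2c at 1.52. With cells thinned to 5000 UMIs the Lmo2 ratio turned to 0.727, from 7 UMIs in 145 Bcl11b-positive cells. In experiment 1 the Lmo2 UMIs of Bcl11b-positive cells came from 36 cells.

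Differences between cultures remained among cells of the same gate. In Kit- Il2ra+ cells of experiment 2, Lmo2 ran from 2.37 CPM in hashtag 8 to 28.1 CPM in hashtag 6, an 11.9-fold span whose lowest value rests on 14 UMIs, and Mef2c from 7.96 to 47.0 CPM, a 5.91-fold span. In Kit+ Il2ra- cells of that experiment the spans were 3.94-fold for Lmo2 and 2.69-fold for Mef2c. Hashtag 7 of experiment 2 had 3.34% of its cells in the Kit+ Il2ra- gate and 41.9% in the Kit- Il2ra+ gate, while hashtag 6 had 12.2% and 9.43%. Other-lineage clusters held 10.4% of hashtag 7 and 40.4% of hashtag 6. The part of this makeup in the Lmo2 level was not tested over cultures. In the Kit+ Il2ra- gate hashtag 7 was still lowest for Lmo2, at 38.7 CPM from 32 UMIs, against 152.2 CPM in hashtag 6.

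Among the 6 gates, Meis1 had its widest span in Kit- Il2ra+ cells in both experiments. It ran there from 4.91 CPM in hashtag 6 to 34.1 CPM in hashtag 8 of experiment 1, a 6.93-fold span, and from 2.34 to 22.3 CPM in experiment 2, a 9.55-fold span. Hashtags 7 and 8 of experiment 1 kept 30.9 and 34.1 CPM in this later gate, while the other 6 hashtags had 4.91 to 13.9 CPM. Lyl1 spanned 1.36-fold in this gate in experiment 1 and 1.79-fold in experiment 2.

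The factors were also compared within single cells, thinned to 5000 UMIs each so that depth was equal. In experiment 1 the 1489 cells with an Lmo2 UMI held Mef2c at 197.0 CPM and the 7113 cells without one at 78.6 CPM, a ratio of 2.51 (interval 2.35 to 2.67). In experiment 2 these levels were 206.9 and 85.7 CPM, a ratio of 2.42 (interval 2.27 to 2.57). The difference had this direction in 8 of 8 hashtags of each experiment. Hhex was 1.34-fold and 1.48-fold higher in the cells with Lmo2.

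Cells with an Lmo2 UMI were low in T-lineage genes. Bcl11b was at 1.88 CPM in them and at 27.0 CPM in the others in experiment 1 (ratio 0.0697), and at 3.03 and 56.6 CPM in experiment 2 (ratio 0.0536). Il2ra was at 0.180 and 0.129 of its level in cells without Lmo2, and Tcf7, which encodes the Notch-induced factor TCF1, at 0.364 and 0.246. All 3 were lower in 8 of 8 hashtags of both experiments. Flt3, a receptor gene of multipotent progenitors, was 3.39-fold and 2.97-fold higher, and Spi1, which encodes PU.1, 1.64-fold and 1.87-fold higher. Kit was at 0.848 (interval 0.766 to 0.936) in experiment 1 and 0.902 (interval 0.791 to 1.03) in experiment 2. Other-lineage cells were more common among the cells with Lmo2, at 39.4% against 11.2% in experiment 1 and 40.0% against 23.6% in experiment 2. Without them, a choice made after the data were seen, Bcl11b was at 0.0981 and 0.0623, Il2ra at 0.241 and 0.158, and Tcf7 at 0.515 and 0.306 of the level in cells without Lmo2, each lower in 8 of 8 hashtags. Mef2c was then 2.62-fold and 2.84-fold higher. Kit was then no longer lower in experiment 1, at 0.991 (interval 0.882 to 1.11). In experiment 2, where its interval had already included 1, it was at 1.06 (interval 0.917 to 1.23).

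Cells with a Mef2c UMI gave nearly the same picture, with Bcl11b at 0.102 and 0.103 and Flt3 at 3.28-fold and 3.89-fold. Cells with a Hhex UMI differed in the same direction but by less, with Bcl11b at 0.433 and 0.313. Cells with a Lyl1 UMI held Mef2c at 0.966 and 1.05, Tcf7 at 0.985 and 1.03 and Il2ra at 1.13 and 1.31 of the level in cells without one. Bcl11b was lower in them, as for the other factors, at 0.836 (interval 0.725 to 0.961) and 0.611 (interval 0.544 to 0.686). Without other-lineage cells, which made up 10.4% and 14.0% of cells with Lyl1 and 19.0% and 32.1% of those without, Bcl11b was at 0.796 and 0.487, Tcf7 at 0.936 and 0.885 and Il2ra at 1.07 and 1.09. Over all thinned cells, the ratios for the other factors were 0.875 and 0.962 (Lmo2), 0.967 and 1.1 (Hhex) and 1.14 and 1.14 (Meis1). Without other-lineage cells they were 0.922 and 1.07 (Lmo2), 0.957 and 1.12 (Hhex) and 1.15 and 1.13 (Meis1).

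**Figure D3:**
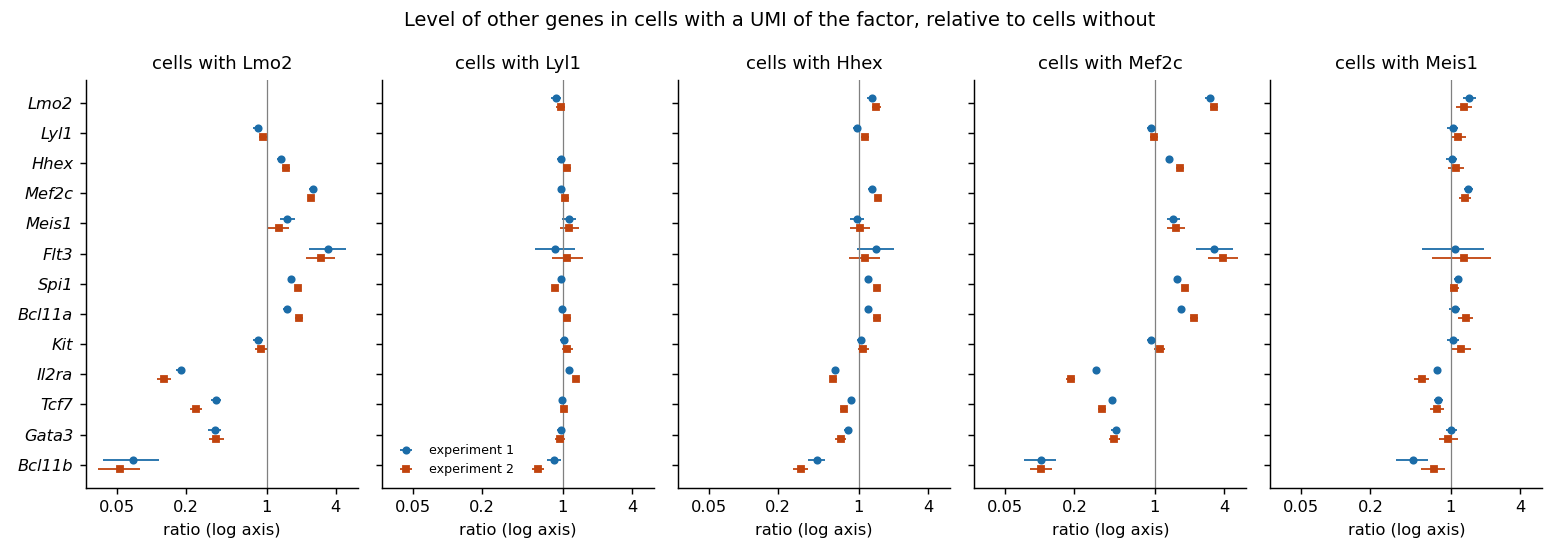
Ratio (log axis) of the level of each gene on the vertical axis in cells with a UMI of the factor named above the panel to its level in cells without one, in cells thinned to 5000 UMIs, for experiment 1 (circles) and experiment 2 (squares) with exact 95% intervals. Cells with Lmo2 or Mef2c lie far below 1 for Bcl11b and Il2ra and above 1 for Flt3 and Spi1, whereas cells with Lyl1 lie nearer to 1, with Bcl11b at 0.836 and 0.611.

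Levels were also read in cell classes. Clusters were made with the 5 factors left out of the genes used, and were named from marker lists. Unnamed clusters held 81.2% (experiment 1) and 47.7% (experiment 2) of single cells. Lmo2 was at 3.38 CPM in the 1304 T progenitor-like cells of experiment 1 and at 9.52 CPM in the 2992 of experiment 2. It was at 226.9 and 150.4 CPM in granulocyte or monocyte-like cells (46 and 332 cells), at 208.2 and 138.9 CPM in mast or basophil-like cells (114 and 121 cells), and at 2.41 and 3.34 CPM in innate lymphoid or NK-like cells (171 and 195 cells). In experiment 1, 22 of the 46 granulocyte or monocyte-like cells came from hashtag 2. Hashtag 7 held 40 of the 114 mast or basophil-like cells. Among named classes the myeloid ones were highest for Lmo2 and the T and innate lymphoid ones lowest in both experiments. In experiment 2 an unnamed cluster of 605 cells was higher, at 168.9 CPM. T progenitor-like levels depended on the clustering: at a Leiden resolution of 1.0 that class held 1735 and 1751 cells, with Lmo2 at 7.77 and 2.77 CPM, so that the order of the experiments turned. There Mef2c was at 25.7 and 6.72 CPM and Meis1 at 12.1 and 4.34 CPM, and no difference between the experiments is read from this class.

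Lyl1 was lowest in the innate lymphoid or NK-like cells, at 14.4 CPM in experiment 1 and 4.74 CPM in experiment 2, and was at 97.4 and 88.0 CPM in T progenitor-like cells. The intervals of these 2 classes did not overlap, while in experiment 1 that of the 16 stromal-like cells (14.9 to 38.6 CPM) overlapped the innate lymphoid one. In the 429 dendritic-like cells of experiment 2 Lyl1 was at 20.5 CPM, while Hhex, at 95.3 CPM, had its highest level of any named class there. Dendritic-like cells also held Lmo2 at 86.1 CPM and Mef2c at 135.8 CPM. At the resolution of 1.0 this class grew to 1063 cells, with Lyl1 at 52.0, Hhex at 105.7, Lmo2 at 124.2 and Mef2c at 197.7 CPM.

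Mef2c was at 154.2 CPM in the 81 B lineage-like cells of experiment 2, where MEF2C is known to act in early B-cell development, and at 15.3 and 34.1 CPM in T progenitor-like cells of experiments 1 and 2. In mast or basophil-like cells Mef2c was at 168.6 and 129.5 CPM. The interval of that class in experiment 2 (116.6 to 143.4 CPM) overlapped the B lineage-like one (136.6 to 173.5 CPM). Meis1 was highest in mast or basophil-like cells, at 103.0 CPM in experiment 1 and 45.1 CPM in experiment 2, against 8.20 and 10.2 CPM in T progenitor-like cells. Only 1 hashtag of experiment 1 and 2 of experiment 2 had 20 or more mast or basophil-like cells. In the former, hashtag 7, Meis1 was at 154.2 CPM in these cells, and in the latter at 34.6 and 50.8 CPM. Stromal-like cells, which resemble the OP9-Dll1 layer, held Meis1 at 40.3 CPM from 31 UMIs in 16 cells of experiment 1 and at 37.6 CPM in 212 cells of experiment 2. In experiment 2 its interval (34.1 to 41.4 CPM) overlapped that of mast or basophil-like cells (37.7 to 53.6 CPM).

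**Figure D4:**
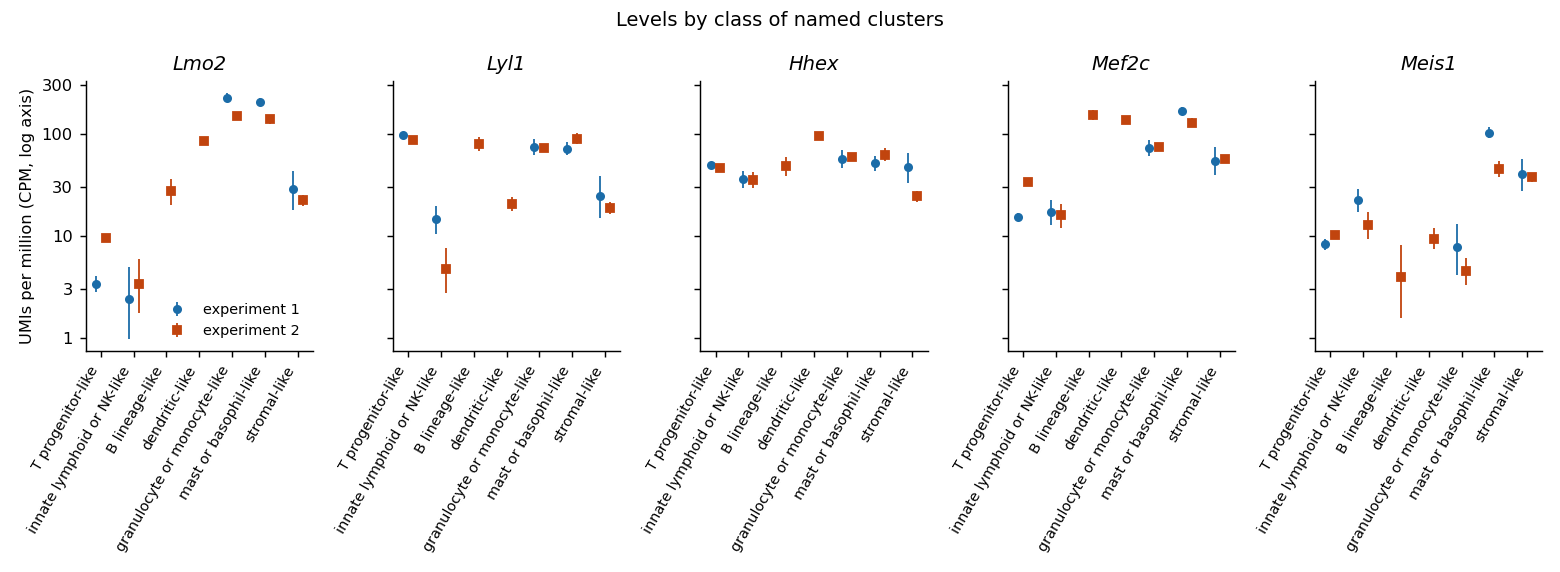
Level of each factor (CPM, log axis) in named cell classes of experiment 1 (circles) and experiment 2 (squares), with exact 95% Poisson intervals. B lineage-like and dendritic-like clusters were named in experiment 2 only; Lmo2 is lowest in the T progenitor-like and innate lymphoid or NK-like classes, and Lyl1 is lowest in the innate lymphoid or NK-like class.

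Levels by hashtag were repeated without cells of other-lineage clusters, a choice made after the data were seen. These cells made up 5.03% to 30.5% of a hashtag in experiment 1 and 10.4% to 42.8% in experiment 2. Without them the Lmo2 span was 3.14-fold in experiment 1 and 16.8-fold in experiment 2, from 8.33 CPM in hashtag 7 to 139.9 CPM in hashtag 6. The Mef2c span was 2.46-fold and 9.60-fold, and the Meis1 span 5.28-fold and 7.19-fold. Hhex then passed 2-fold in experiment 2, at 2.19. Lyl1 spanned 1.22-fold and 1.33-fold, less than with all cells, and its level was higher in each of the 16 hashtags.

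**Figure D5:**
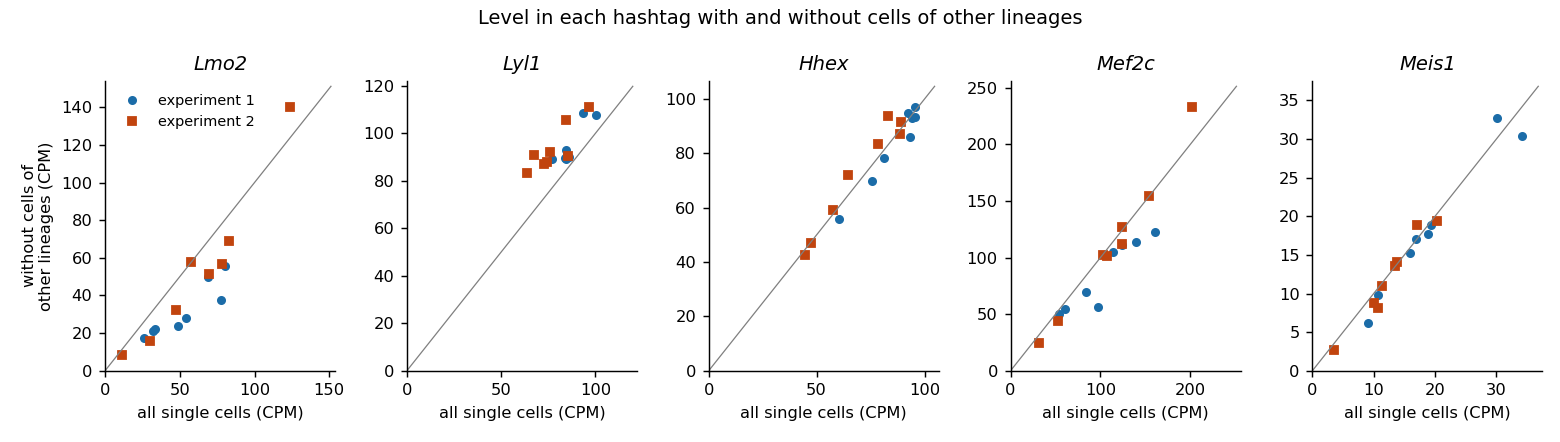
Level of each factor (CPM) in each hashtag without cells of other-lineage clusters (vertical) against its level in all single cells (horizontal) for experiment 1 (circles) and experiment 2 (squares), with the line of equal values. Lyl1 lies above the line in all 16 hashtags and Lmo2 lies below it in 14 of them.

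Partners of the set were taken from 4 lists. For the helix-loop-helix and LIM complex of LMO2 and LYL1, 7 of 10 listed genes reached 5 CPM; none passed 2-fold between hashtags in experiment 1 and 2 did in experiment 2, namely Ssbp3, at 47.0 to 136.5 CPM, and Tcf12, at 29.8 to 85.8 CPM. Both were highest in hashtag 4 there. The share of all tested genes past 2-fold was 10.8% in experiment 1 and 17.4% in experiment 2. Ldb1, the shared adaptor, was even, with ratios of 1.27 and 1.21. Tal1, at a mean of 4.58 and 3.38 CPM, and Gata2, at 4.09 CPM in experiment 1, lay under the 5 CPM minimum, and Ldb2 had no UMI in single cells. None of the 7 differed 2-fold between the gates in either experiment. The share of all tested genes that did so in either direction was 3.09% and 5.7% for the Kit and Il2ra gates. For the Bcl11b gates it was 1.99% and 3.36%. With 7 genes such a count lies near these shares and is not read as a result about the list.

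Homeobox genes related to MEIS1 were read in the same way. Hoxa9, a HOX gene of stem cells, ran from 8.11 to 21.1 CPM in experiment 1 and from 1.44 CPM in hashtag 7, from 34 UMIs, to 20.5 CPM in hashtag 6 in experiment 2, a ratio of 14.2. Hashtag 7 was also the lowest of experiment 2 for Hoxa7 and Meis2, as it was for Meis1. The 9 stromal markers of that experiment summed lowest in hashtag 7 too, at 207.1 CPM. Their sum was highest in hashtag 2, at 1013 CPM, where Meis2 was also highest, at 20.4 CPM. The part of stromal cells in these levels was not tested. Hoxa7 and Hoxa9 were both higher in Kit+ Il2ra- than in Kit- Il2ra+ cells in 8 of 8 hashtags, Hoxa9 by 3.76-fold and 5.57-fold and Hoxa7 by 2.96-fold and 4.54-fold. Meis1 itself had smaller ratios in these gates, 1.47 and 2.74.

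Of the MEF2 family and the class IIa deacetylases that bind it, 5 of 7 listed genes were tested, and 3 passed 2-fold between hashtags in experiment 1 and 4 in experiment 2, against the same 10.8% and 17.4% of all genes. Mef2a ran from 10.9 to 23.6 CPM in experiment 1 and from 9.48 CPM in hashtag 7 to 28.6 CPM in hashtag 6 in experiment 2, while Mef2d was even at ratios of 1.19 and 1.21. Hdac4 was lower in Bcl11b-negative than in Bcl11b-positive cells, at 17.4 and 35.4 CPM in experiment 1 (ratio 0.490) and 13.4 and 28.5 CPM in experiment 2 (ratio 0.469). This direction is the opposite of that of Mef2c. Of the other stem and progenitor factors, 3 of 9 tested passed 2-fold between hashtags in experiment 1 (10.8% of all genes) and 6 of 9 in experiment 2 (17.4%). Bcl11a and Spi1 were higher in Bcl11b-negative cells by 2.16-fold and 2.06-fold in experiment 1 and by 2.04-fold and 2.37-fold in experiment 2.

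T-lineage genes had wider spans. Of 18 listed, 14 were tested in experiment 1 and 16 in experiment 2, of which 13 and 15 passed 2-fold between hashtags, against 10.8% and 17.4% of all genes. Their median spans were 3.20 and 7.15, against 1.31 and 1.38 for all tested genes. Bcl11b was lowest in hashtag 2 of experiment 1, at 3.33 CPM, where Lmo2 was highest, and highest in hashtag 4, at 35.0 CPM, where Lmo2 was lowest. In experiment 2 Bcl11b was at 63.4 CPM in hashtag 7 and 4.75 CPM in hashtag 6, against 128.5 CPM in hashtag 4, where Lmo2 was at 30.4 CPM. The lowest Bcl11b of experiment 2 was 2.04 CPM in hashtag 1, where Lmo2, at 82.8 CPM, was below its highest level.

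Genes with the most similar pattern were ranked among 4965 genes of at least 20 CPM by the lower of the 2 values of Pearson's r over the 8 hashtags of each experiment. For Lmo2 these were Cd44 (r of 0.96 in experiment 1 and 0.95 in experiment 2), Kcmf1 (0.95 and 0.97) and Pou2f2 (0.94 and 0.94). For Mef2c they were Rnf149 (0.98 and 0.96), Cd44 (0.96 and 0.98) and Rbfa (0.98 and 0.95). Hhex was closest to Prcp, Bex6 and E130309D02Rik, Lyl1 to Fkbp1a, Slc35b4 and Psenen, and Meis1 to Rgs18, Arl6ip5 and Rnf216. These are the best of many genes over 8 points and are given as a description.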

How the data were processed

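The authors deposited, for each of 2 experiments, a matrix of raw UMI counts per gene and cell barcode and a table of counts for 8 hashtag columns, without normalization. Per the submitters' processing notes, Cell Ranger 3.0.0 and the builds mm10 and GRCm38 were used. The filter that chose the barcodes is not given in the sources used here. The 16 hashtag columns (8 in each of 2 tables) carry no condition and were tied to none. The lists of gene and barcode names hold no measurements.

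Barcodes were kept from 500 detected genes upward when mitochondrial UMIs made up less than 10%. A hashtag was called where the top tag had at least 50 counts and at least 3 times the second, which removes cells with 2 tags; no other doublet caller was run. Of 9332 and 10214 cells kept, 8797 and 8335 were single. UMIs were summed per hashtag, gate, class or experiment and divided by the total. Ratios have exact conditional 95% intervals, and 2-fold was the size used for counts; intervals cover counting error only. Genes under a mean of 5 CPM over hashtags were left out of background counts. Gates were positive at 2 UMIs or more and negative at 0, and cells with 1 were left out.

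Clusters came from scanpy 1.11.5 (2000 variable genes without the 5 factors, 30 components, 15 neighbours, Leiden resolution 0.5). Naming a cluster took 3 or more class markers in its leading genes and no tie between classes. Other-lineage cells are those of clusters named for another lineage, or with at least 3 such markers, or 2 genes of mature T cells, among the 10 leading genes. Alternatives used HTODemux in Seurat 5.3.0, TMM in edgeR 4.0.16 and size factors in DESeq2 1.42.0, all for scaling or hashtag calls and not for tests. Ratios and intervals were run on simulated sums with counting error only, which cannot check spread between cells or cultures. The 5 factors, the gene lists and the marker lists were chosen with earlier results of these data known. Named genes are these, the listed genes, and the 3 genes most alike in pattern to each factor. Promoter windows are RefSeq's, on GRCm38.p6. A listed gene, and the counts of its list, are not reported here.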

Additional observations from a re-analysis of the deposited data

Results flagged for a closer look

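Barcodes that fell outside the 8 hashtags of experiment 2 were not part of any comparison. Among its 638 kept barcodes whose top tag had under 50 counts, Meis1 was at 23.7 CPM (exact 95% Poisson interval 21.1 to 26.6), above the highest hashtag, hashtag 2, at 20.3 CPM. The 9 stromal markers summed to 7512 CPM in these barcodes, and Meis1 was at 37.6 CPM in stromal-like cells of that experiment. Per the labels, the sort was for CD45+ reporter-positive cells. The part of such cells in the Meis1 level was not tested. In the same barcodes Lmo2 was at 51.5 CPM and Mef2c at 101.8 CPM, within the range of the hashtags, and Lyl1 at 44.3 CPM and Hhex at 33.3 CPM, both under the lowest hashtag.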

How the results depend on the processing

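No paired analysis was possible because hashtags carry no condition and their numbers pair no samples. Of 125 alternative counts of factors past 2-fold, 124 stayed within 1.5 times the main count. The exception was the Bcl11b gate of experiment 2, where 0 factors passed with gates positive at 4 UMIs or more, against 3. Leaving out each hashtag in turn gave counts of 3 between hashtags in each experiment, 2 and 4 in the Kit and Il2ra gates and 2 to 3 in the Bcl11b gates. Leaving out cells of other lineages was added after seeing the data. The Lmo2 ratio in that gate of experiment 2 turned to 0.727 with cells thinned to 5000 UMIs, where it rested on 7 UMIs in 145 Bcl11b-positive cells, and was 4.22 under a stricter tag ratio of 10 and 3.88 with gates positive at 1 UMI. In the same gate of experiment 1, thinning left 0 Lmo2 UMIs in 133 Bcl11b-positive cells, which at a floor of 3 UMIs is at least 2.05-fold. Of 615 values for single factors between hashtags, experiments and gates, 442 lay within the counting interval of the main value, 172 outside it and 1 reversed. Meis1 rests on the fewest UMIs, and a level of 3.57 CPM in hashtag 7 of experiment 2 has an interval of 2.85 to 4.42 CPM.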
